A study of Mus musculus with 6 samples.

Results

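The genes described here are 10 members of the amino acid response of the transcription factor Atf4 and of the serine synthesis pathway it controls, out of 12393 genes with a probe set on the arrays. They were chosen by symbol, with earlier results of these data known, among them a higher Trib3 signal in the diabetic group, so their changes are given as a description. Stress regulators are the transcription factors Atf4, Atf5 and Ddit3, the pseudokinase Trib3, the glutathione-degrading enzyme Chac1 and the leucine sensor Sesn2. Biosynthetic enzymes are Asns, Psat1, Phgdh and Psph. The samples were whole brains of mouse embryos at E11.5, of Swiss albino mice, 1 brain on each of 6 arrays. The diabetic group holds 3 malformed brains from mothers with diabetes induced by streptozotocin, a toxin of the insulin-producing pancreatic beta cells. The control group holds 3 brains from normal mothers, with no agent named. Diabetes of the mother and malformation of the embryo cannot be told apart, since no normally formed brain of a diabetic mother and no malformed brain of a normal mother was compared. Whether brains shared a litter is not given in the labels, and the p-values measure only the spread between these arrays.

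When uncharged tRNA accumulates, the kinase Gcn2 (gene Eif2ak4) phosphorylates the initiation factor eIF2alpha, and the kinase Perk (Eif2ak3) does so when unfolded protein builds up in the endoplasmic reticulum. Most translation then falls, while the Atf4 messenger is translated more, because short upstream reading frames in it are bypassed; the level of Atf4 RNA is therefore a poor measure of Atf4 protein. Atf4 switches on genes of amino acid synthesis, uptake and tRNA charging, and its own stress partners and brakes. Serine synthesis branches from glycolysis at 3-phosphoglycerate. In mouse brain Phgdh is made by neuroepithelial and radial glial cells and little by neurons, and mouse embryos without it develop small, malformed brains.

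Atf4 binds with a C/EBP partner to composite sites whose core can be written TGATGNAA. That core was searched on both strands of RefSeq windows of GRCm38.p6, from 250 bases before to 50 bases after each transcription start. All 10 members had a window, and 3 of them held the core: Trib3, Chac1 and Asns, 1 copy each. Of all 32851 windows, 3.97% held it, a share of windows rather than genes, and the 10 members had 12 windows. Whether Atf4 acts at the matches in Trib3, Chac1 and Asns was not tested. The 3 windows are shown because they hold letters that match the core of the element Atf4 is known to use. They are written 5′ to 3′ on the strand of the gene, with the core in capitals, and come from chr2:152344011-152344310 (minus strand) for Trib3, chr2:119350992-119351291 (plus strand) for Chac1 and chr6:7693160-7693459 (minus strand) for Asns.
Trib3: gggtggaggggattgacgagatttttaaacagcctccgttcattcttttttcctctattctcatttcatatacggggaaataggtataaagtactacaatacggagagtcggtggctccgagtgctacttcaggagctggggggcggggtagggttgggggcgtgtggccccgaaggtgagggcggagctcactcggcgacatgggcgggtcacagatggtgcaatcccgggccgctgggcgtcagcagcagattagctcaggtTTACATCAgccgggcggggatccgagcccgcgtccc
Chac1: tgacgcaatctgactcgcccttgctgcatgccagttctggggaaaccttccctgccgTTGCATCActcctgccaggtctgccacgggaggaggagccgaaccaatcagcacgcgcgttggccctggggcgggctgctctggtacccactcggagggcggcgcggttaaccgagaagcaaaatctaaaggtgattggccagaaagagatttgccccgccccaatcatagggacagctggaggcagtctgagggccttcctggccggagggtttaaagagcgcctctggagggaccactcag
Asns: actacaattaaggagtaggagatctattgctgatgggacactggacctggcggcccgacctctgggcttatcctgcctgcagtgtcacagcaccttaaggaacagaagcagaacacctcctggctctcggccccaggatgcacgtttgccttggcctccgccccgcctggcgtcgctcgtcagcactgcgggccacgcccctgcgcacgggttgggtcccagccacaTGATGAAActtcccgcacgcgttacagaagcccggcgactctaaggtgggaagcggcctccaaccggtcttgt
In Asns the core reads in the direction of the gene and begins 23 bases before the start. In Chac1 it lies on the opposite strand, 193 bases before the start, and in Trib3 it lies on the opposite strand at base 15 after the start. No match in the other members says only that these letters are not in those windows. Over all genes tested, the 180 with the core had a median log2 change of 0.035 with 55% above 0, and the 6822 with a window but no core had a median of 0.016 with 52.9% above 0. The share that was higher at an unadjusted p under 0.05 in limma was 3.33% with the core and 3.78% without it.

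The signals are linear probe set intensities, and replicates 1 and 2 of each group stand in a first table (MOE430A chip) and replicate 3 of each in a second table (Mouse430A_2 chip). Array medians were 173 to 227 in the diabetic and 165 to 222 in the control group. Log2 changes are diabetic minus control on log2(signal + 32), with the table as a block, so differences are taken within a chip. Progenitor and neuron markers were present, with 10 of 10 listed genes each at a mean signal of at least 100. Embryonic globin genes were strong: the 6 erythroid markers found summed to 47956 to 55989 on diabetic and 41083 to 50308 on control arrays. Diabetic replicate 2 stood apart in its neuron markers, whose summed signal was 8484 there, against 12109 and 20468 on diabetic replicates 1 and 3 and 15500 to 17832 on control arrays. In bulk tissue, fewer cells of a type and less RNA per cell cannot be told apart.

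The members as a group lay slightly above 0, the median over all 10 being a log2 change of 0.20, against 0.012 over the 8627 genes tested. Trib3 stood out, 1.83-fold higher in the diabetic group. The other 9 members lay between log2 changes of -0.11 and 0.32. By limma, 0 of the 9 tested members passed at an adjusted p under 0.05, as did 0 of the 8627 genes (0%). At an unadjusted p under 0.05 stood 1 of the 9, beside 7.64% of all genes tested: Trib3 was higher, beside 3.73%, and 0 were lower, beside 3.91%. Diabetic arrays lay above the control arrays in both tables for 4 members, Atf4, Trib3, Psat1 and Phgdh, beside 11.3% of all genes tested, and below them for 0 members, beside 10.6%. Chac1 was not tested, since its mean signal of 97.1 was under the minimum of 100. The tested members next to that minimum were Trib3, with a mean of 149, and Sesn2, with a mean of 175. Trib3 reached the minimum through the diabetic arrays, its control mean being 97.6.

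**Figure D1:**
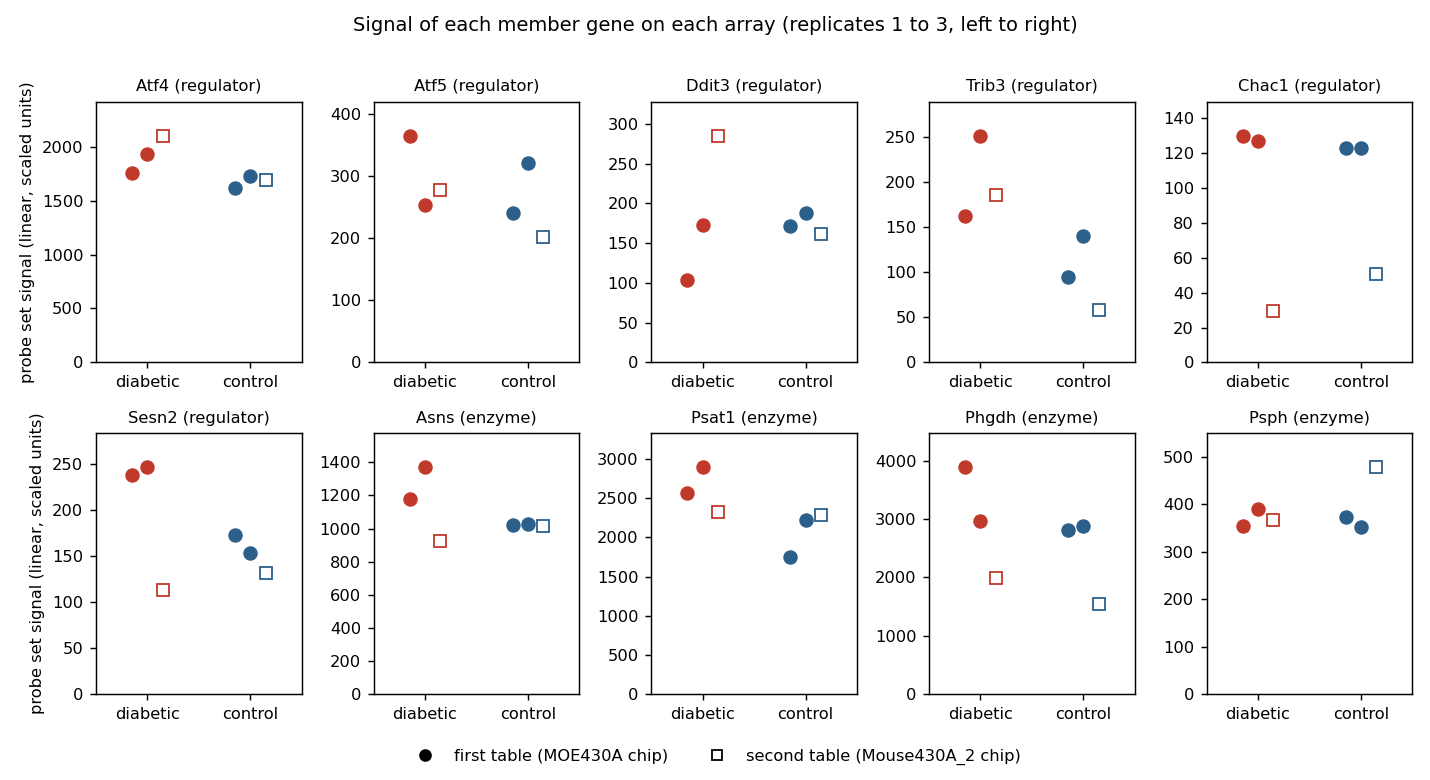
Linear probe set signal (vertical axes, scaled units, starting at 0) of each of the 10 members on each array, diabetic on the left and control on the right of every panel, with replicates 1 to 3 from left to right. Filled circles are the first table and open squares the second; the 3 diabetic Trib3 values (162 to 251) all lie above the 3 control values (57.6 to 140).

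Trib3 is a pseudokinase that is induced by Atf4 and Ddit3 and in turn restrains Atf4 activity. Its signals were 162, 251 and 186 on diabetic replicates 1 to 3, against 94.7, 140 and 57.6 on control replicates 1 to 3. The groups did not overlap, within tables or across them. The mean was 199.5 ± 46.5 in the diabetic and 97.6 ± 41.5 in the control group (SD, n = 3 each). The log2 change was 0.87 ± 0.22 (SE; 95% interval 0.38 to 1.36), a 1.83-fold difference on this scale, with a limma adjusted p of 0.527. By unadjusted p, Trib3 was number 36 of the 8627 genes tested, a description only, since it was chosen with its higher signal known. Within the first table the change was 0.66 and within the second 1.28. As single arrays were left out, it stayed between 0.66 and 1.09. The 0.66 is the first-table value again, since without either replicate 3 only the first table gives the change.

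A second Trib3 probe set gave a larger difference. It read 165, 213 and 171 on diabetic replicates 1 to 3, against 23.6, 27.2 and 60.3 on control replicates 1 to 3, again without overlap. With all 20380 1-gene probe sets fitted in place of 1 per gene, a fit added after the values were seen, its log2 change was 1.67 ± 0.21 (SE), with 1.94 within the first table and 1.13 within the second. Its limma adjusted p was 0.764. By unadjusted p it was number 2 of all 20380, but Trib3 was chosen with its higher signal known, so that rank is only a description. On the control arrays this probe set was close to the pseudocount, so the size of the change depends on that value.

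Atf4, the factor that drives the response, had 1755, 1935 and 2101 on diabetic replicates 1 to 3, against 1620, 1728 and 1692 on control replicates 1 to 3. Every diabetic array lay above every control array, by a small margin. The log2 change was 0.19 ± 0.15 (SE; 95% interval -0.15 to 0.53), with a limma adjusted p of 0.748. Another Atf4 probe set of lower signal ran the other way: it read 551, 497 and 967 on diabetic replicates 1 to 3, against 596, 575 and 1333 on control replicates 1 to 3. There the log2 change was -0.25 ± 0.16 (SE), with the diabetic arrays below the control arrays in both tables, so the direction for Atf4 RNA depends on the probe set. The third Atf4 probe set had a mean signal of 7.05, far under the minimum.

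Atf5, a relative of Atf4 that is under similar translational control, had 365, 253 and 277 on diabetic replicates 1 to 3, against 241, 322 and 202 on control replicates 1 to 3. The groups overlapped, and the log2 change was 0.21 ± 0.19 (SE), with a limma adjusted p of 0.786. It was 0.10 without diabetic replicate 1 and 0.37 without diabetic replicate 2. Ddit3, also called Chop, is a stress transcription factor linked to cell death. Its signals were 104, 173 and 285 on diabetic replicates 1 to 3, against 172, 188 and 161 on control replicates 1 to 3. Diabetic replicate 1 was the lowest of the 6 arrays and diabetic replicate 3 the highest, and the log2 change of 0.0095 ± 0.24 (SE) combined opposite values, -0.34 within the first table and 0.71 within the second. Its 95% interval ran from -0.54 to 0.56.

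Chac1 degrades glutathione and is a known target of Atf4. Its signals were 130, 127 and 29.6 on diabetic replicates 1 to 3, against 123, 123 and 50.8 on control replicates 1 to 3. In the first table the arrays nearly coincided, with a log2 change of 0.049, and in the second the diabetic array was lower, with -0.43. Over both tables it was -0.11, given without a test.

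Sesn2 senses leucine and, when induced by stress, restrains the growth kinase complex mTORC1. Its signals were 238, 246 and 113 on diabetic replicates 1 to 3, against 172, 153 and 131 on control replicates 1 to 3. Diabetic arrays were higher in the first table, with a log2 change of 0.50, and lower in the second, with -0.17. Over both it was 0.27 ± 0.18 (SE), with a limma adjusted p of 0.716. The second Sesn2 probe set read 203, 278 and 106 on diabetic replicates 1 to 3, against 56, 180 and 29.5 on control replicates 1 to 3. It had a log2 change of 1.05 ± 0.32 (SE), positive in both tables, with a limma adjusted p of 0.764 over all 1-gene probe sets.

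**Figure D2:**
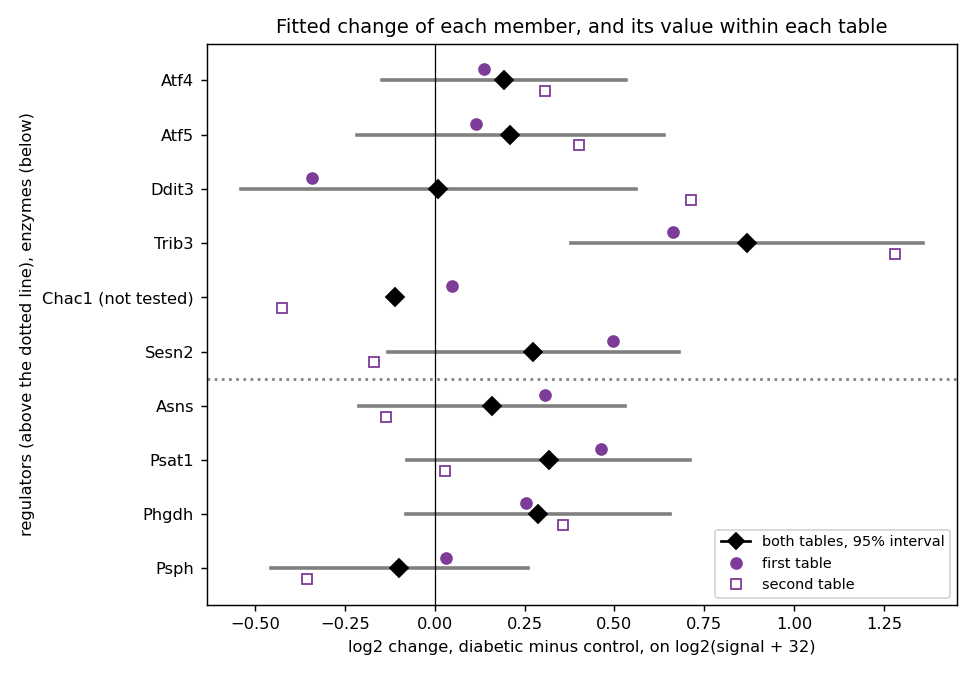
Log2 change, diabetic minus control (horizontal axis), of each member, regulators above the dotted line and enzymes below it. Black diamonds are the fit over both tables with its 95% interval, and purple symbols the values within each table; the interval of Trib3 (0.38 to 1.36) lies above 0 and those of the 8 other tested members span 0.

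Among the enzymes, 3 of 4 lay above 0. Asns makes asparagine from aspartate and glutamine and is the classic target of the amino acid response. Its signals were 1180, 1370 and 923 on diabetic replicates 1 to 3, against 1019, 1027 and 1017 on control replicates 1 to 3. The control arrays were nearly equal, while the diabetic arrays lay above them in the first table and below in the second. The log2 change was 0.16 ± 0.17 (SE), with a limma adjusted p of 0.814, and 0.13 ± 0.15 for its other probe set. It was 0.057 without diabetic replicate 2 and 0.31 in the first table alone.

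Phgdh, phosphoglycerate dehydrogenase, takes the first step from glycolysis into serine. Its signals were 3885, 2960 and 1981 on diabetic replicates 1 to 3, against 2810, 2874 and 1541 on control replicates 1 to 3. The diabetic arrays lay above the control arrays of their table, by a narrow margin for diabetic replicate 2. The log2 change was 0.29 ± 0.16 (SE; 95% interval -0.081 to 0.65), with a limma adjusted p of 0.690. The 3 other Phgdh probe sets had 0.16, 0.50 and 1.71. The last of these rests on control replicate 3, which read 111, against 1845 and 1989 on control replicates 1 and 2 and 2410 to 2984 on diabetic arrays. In the first table alone it had 0.52, and the 4 probe sets lay between 0.25 and 0.52. A further 2 probe sets annotated to Phgdh together with another gene were left out.

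Psat1, the aminotransferase of the second step, had 2570, 2895 and 2327 on diabetic replicates 1 to 3, against 1746, 2228 and 2282 on control replicates 1 to 3. The groups did not overlap within tables, but in the second the arrays differed by a log2 change of only 0.028. Over both tables it was 0.32 ± 0.18 (SE; 95% interval -0.077 to 0.71), with a limma adjusted p of 0.689, and 0.26 ± 0.18 for its other probe set. Without control replicate 1, the lowest array, it was 0.18. Psph, the phosphatase of the last step, had 354, 390 and 366 on diabetic replicates 1 to 3, against 374, 352 and 478 on control replicates 1 to 3. The groups overlapped in the first table, and the log2 change was -0.098 ± 0.16 (SE), with a limma adjusted p of 0.877.

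Beside the enzymes stand the cell type markers. Summed progenitor and radial glia markers were 25247 to 25713 on diabetic and 21455 to 26450 on control arrays, with 5 of 10 genes above 0. All 10 neuron markers were below 0, their median being -0.34 on the log2 scale, and their sum on diabetic replicates 1 to 3 was 77.2%, 54.1% and 115% of the control mean of the table. Mesenchyme and meninges markers likewise had 0 of 10 genes above 0 and sums of 11482 to 14314 on diabetic and 14081 to 16693 on control arrays. Endothelial markers had 4 of 8 genes above 0 and sums of 2307 to 2788 on diabetic and 1809 to 3193 on control arrays. Surface epithelium markers had 5 of 8 above 0, with sums of 1735 to 3165 on diabetic and 1777 to 2944 on control arrays. Macrophage markers had 2 of 8 above 0, with sums of 902 to 1210 on diabetic and 994 to 1660 on control arrays, Aif1, Ptprc and C1qa being under a mean signal of 100. The part of these cell types in the members' values was not tested.

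**Figure D3:**
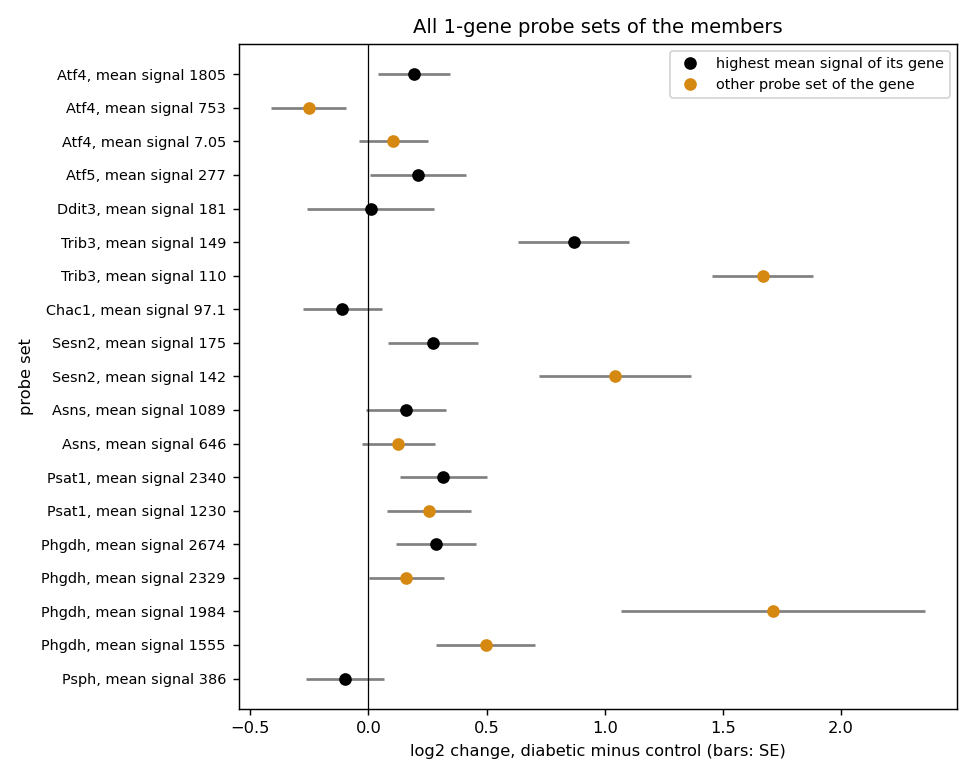
Log2 change, diabetic minus control (horizontal axis, bars are SE), of all 19 probe sets that name 1 member gene, with the mean signal of each. Black points are the probe sets of highest mean signal and orange points the others; both Trib3 probe sets lie far above 0 (0.87 and 1.67), and the Atf4 probe sets lie on both sides of it.

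Of the 19 probe sets of the members, 5 were higher at an unadjusted p under 0.05 in limma, beside 3.27% of all 20380. They were both of Trib3, the second of Sesn2 and 2 of Phgdh. Trib3 was chosen with its higher signal known, and 1 of the 2 Phgdh probe sets rests on control replicate 3. The other Phgdh probe set also drew mostly on the second table. Its log2 change was 0.27 within the first table, where the groups overlapped, and 0.96 within the second. Probe sets of 1 gene are not independent, so the count is a description. At that threshold 0 of the 19 were lower, beside 3.91% of the genes tested with 1 probe set each. Adjusted over all probe sets, 0 of the 19 passed, beside 0% of all 20380, and the smallest adjusted p was 0.764.

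The comparison of stress regulators with biosynthetic enzymes showed almost equal medians. The 6 regulators had a median log2 change of 0.20, with 5 above 0, and the 4 enzymes 0.22, with 3 above 0. The difference of the medians was -0.021. A related quantity, the median log2 signal of the regulators minus that of the enzymes on each array, had a residual SD of 0.19. That SD describes signal levels on single arrays, so it gives no error for the -0.021. Within tables the order turned. Within the first table the median was 0.13 for the regulators and 0.28 for the enzymes, and within the second it was 0.35 for the regulators and -0.053 for the enzymes. By array, the regulators exceeded their control mean by 0.21, 0.12 and 0.35 on diabetic replicates 1 to 3. The enzymes exceeded it by 0.29 and 0.25 on diabetic replicates 1 and 2 and at -0.053 on diabetic replicate 3. On that array 2 of 4 enzymes were above the control array, Phgdh and, barely, Psat1. The regulators ran from -0.11 to 0.87 and the enzymes from -0.098 to 0.32. The wider range of the regulators came from Trib3, which was chosen with its higher signal known. Without Trib3 the regulators ran from -0.11 to 0.27.

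Patterns over the 6 arrays, centred on the mean of each table, were compared by Pearson correlation as a description of likeness. The centring leaves the difference between the groups in, so r also reflects that difference. Among the 36 pairs of the 9 tested members, without Chac1, Atf4 and Trib3 had the most similar patterns. Their r was 0.997 over 6 arrays, and Sesn2 and Asns came next with 0.907. The value for Atf4 is that of its probe set of highest signal. Another Atf4 probe set ran the other way between the groups, with a log2 change of -0.25. Outside the members, the genes most like Trib3 were Eif4a1, an RNA helicase of translation initiation (0.996), Gramd4 (0.994) and Bmf, a pro-apoptotic protein (0.993). Those most like Asns were Txn1, a thioredoxin (0.999), Plekha2 (0.996) and Tma16 (0.996). With 6 arrays, values of at least 0.9 occurred for many genes outside the members. Among the 8627 genes tested, 236 reached 0.9 with Trib3 and 275 with Asns. How many reached values as high as those named was not counted.

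Other genes of the pathway were taken from lists chosen by function. Among amino acid transporters that Atf4 can induce, 8 of 9 tested genes were on the positive side, their median being 0.19 (log2), and 3 were higher at an unadjusted p under 0.05, beside 3.73% of all genes tested. Slc3a2, the heavy chain shared by several exchangers, had 1671, 2315 and 1052 on diabetic replicates 1 to 3, against 970, 1085 and 786 on control replicates 1 to 3. Its log2 change was 0.75 ± 0.19 (SE), with a limma adjusted p of 0.527 and no overlap within tables. The glutamine transporters Slc38a3 and Slc1a5 had 0.42 ± 0.17 and 0.45 ± 0.19. Slc38a3 had 0.26 within the first table and 0.74 within the second, and Slc1a5 had 0.64 and 0.079.

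Cytosolic aminoacyl tRNA synthetases, which load amino acids on tRNA, had 16 of 18 tested genes above 0, beside 52.2% of all genes tested, and a median log2 change of 0.17. At an unadjusted p under 0.05, 3 were higher, beside 3.73% of all genes tested, and 0 lower, beside 3.91%. The seryl enzyme Sars had 2469, 2310 and 1799 on diabetic replicates 1 to 3, against 1625, 2048 and 897 on control replicates 1 to 3, a log2 change of 0.58 ± 0.18 (SE), with 0.54 for its other probe set. The valyl enzyme Vars had 0.63 ± 0.20, made up of 0.94 within the first table and 0.012 within the second, and the tyrosyl enzyme Yars 0.37 ± 0.15. Of the 11 synthetases with a promoter window, 5 held the TGATGNAA core: Aars, Gars, Iars, Tars and Yars, but neither Sars nor Vars. Among all tested genes with a window, 180 held the core and 6822 did not. Among genes with a window, the core was also held by 4 of 11 on the list of other stress targets of Atf4 and their relatives. It was held by 2 of 6 transporters, by 0 of 12 enzymes that use serine and by 0 of 18 chaperone genes.

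Enzymes that use serine or carry its one-carbon unit had 8 of 13 tested genes above 0 and a median log2 change of 0.041. At an unadjusted p under 0.05 in limma stood 0 of the 13 in either direction, beside 7.64% of all genes tested. Shmt2, which splits serine to glycine in mitochondria, had 0.31 ± 0.18 (SE). Enzymes of proline, glutamine, aspartate and alanine had a median of 0.033 over 7 genes, with values on both sides. Glul, glutamine synthetase, had -0.53 ± 0.15, with -0.032 for its other probe set, and Bcat1, a transaminase of branched-chain amino acids, had 0.46 ± 0.16. Glycolytic enzymes had 6 of 6 tested genes above 0 and a median of 0.58, beside 0.22 for the serine and asparagine enzymes, a difference that was not tested. Of the 6, Pfkl, Aldoa, Tpi1 and Pgk1 act before the branch to serine, and Pgam1 and Pkm after it.

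Upstream, the kinases, phosphatase subunits and initiation factor subunits around eIF2alpha had 9 of 12 tested genes above 0 and a median log2 change of 0.086. Leucine zipper partners and relatives of Atf4 had a median of -0.00014, with 5 of 10 above 0. In each of these 2 lists 0 genes stood at an unadjusted p under 0.05 in limma, beside 7.64% of all genes tested. The list of other stress targets of Atf4 also holds relatives of members, such as Trib1, Trib2, Sesn1 and Sesn3. It had a median of 0.17, with 7 of 12 above 0. Stc2, a secreted glycoprotein induced by stress, had 114, 425 and 76.8 on diabetic replicates 1 to 3, against 117, 93.8 and 23.8 on control replicates 1 to 3. The groups overlapped, and diabetic replicate 2 was far above the other arrays, which read 23.8 to 117. Stc2 reached the minimum mean signal for testing only through that array. Its log2 change was 0.93 ± 0.34 (SE), with 0.42 for its other probe set. Trib2, a relative of Trib3, had -0.42 ± 0.17, with -0.17 for its other probe set. Their list median was 0.40 on diabetic replicate 2, against -0.12 and 0.00011 on diabetic replicates 1 and 3. Chaperones and the unfolded protein response of the endoplasmic reticulum leaned the other way, with 14 of 19 tested genes below 0 and a median of -0.13. It was made up of -0.23 within the first table and 0.086 within the second. By array, the median of the chaperone list was -0.032, -0.44 and 0.086 on diabetic replicates 1 to 3, so the lean came mostly from diabetic replicate 2. In none of these lists did a gene pass at an adjusted p under 0.05 in limma, and the smallest adjusted p over all genes tested was 0.527.

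**Figure D4:**
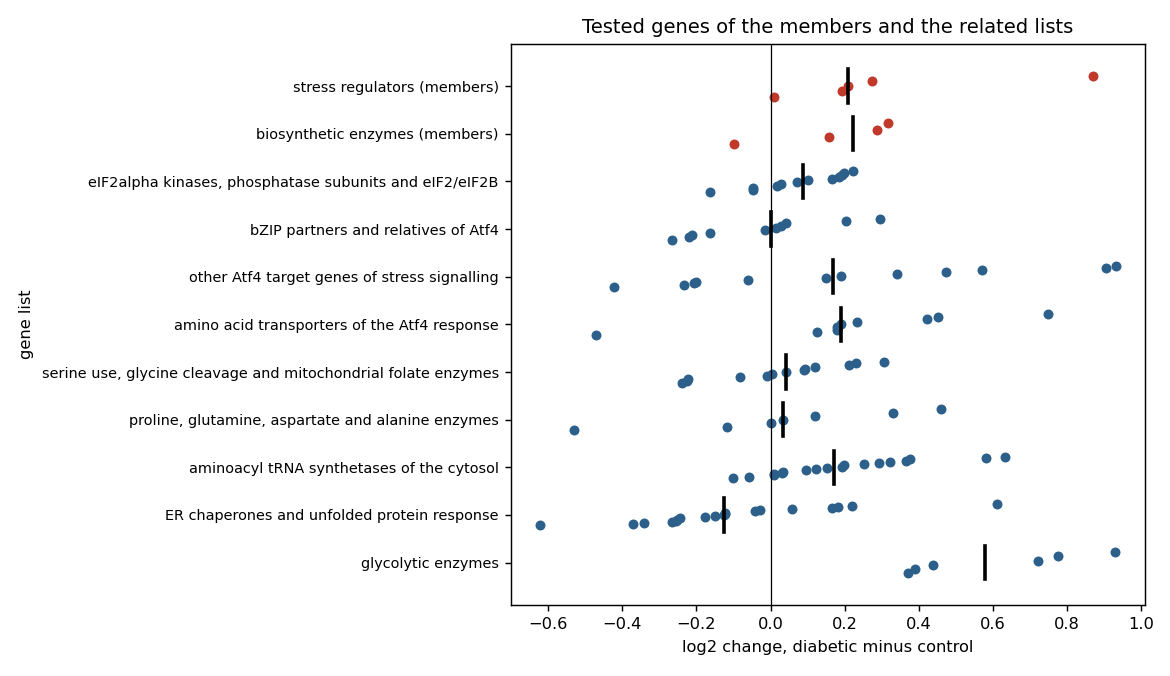
Log2 change, diabetic minus control (horizontal axis), of each tested gene of the 2 member groups (red) and of 9 related lists (blue), with the median of the tested genes as a black bar. Transporter and synthetase genes lie mostly above 0 (8 of 9 and 16 of 18), while chaperone genes lie mostly below it (14 of 19).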

How the data were processed

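Linear probe set intensity values were deposited by the authors for 6 arrays in 2 tables, and every array had a trimmed mean of about 500 with 2% of values cut at each end. The submitters' processing notes name the Affymetrix software GCOS, without its role, version or settings. Groups and replicate numbers came from the sample titles. Of 22690 probe sets, 20380 named 1 gene in the platform annotation. The probe set of highest mean log2 signal represented each gene; for all 10 members the mean linear signal chose the same one. Arrays were rescaled to exactly 500, log2(signal + 32) was taken, and the 8627 genes whose signal averaged at least 100 were fitted with limma 3.58.1 in R 4.3.3 (moderated by eBayes, two-sided; Benjamini-Hochberg adjusted p over these genes, threshold 0.05) with the table as a block. The median SE of a log2 change was 0.17, and precision is limited by the number of arrays. Changes of low signals are understated by the pseudocount. The code was tested on simulated data.

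Members and lists were chosen with earlier results of these data known. Named genes were all members, up to 3 genes of smallest p from each list, and the 3 genes most like Trib3 and Asns. Alternatives were other pseudocounts, filters, normalizations, blocks, array weights, probe set rules, single tables and left-out arrays.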

Additional observations from a re-analysis of the deposited data

How the results depend on the processing

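In limma 0 genes passed the adjustment in every alternative that gave a test, against 659 at an unadjusted p under 0.05, a count of 100 with no block and of 414 to 839 with any one array removed, the lowest being without control replicate 1. Trib3, Atf5, Psat1 and Phgdh kept a positive log2 change under all alternatives. Direction changed for the others: Ddit3 had -0.0066 with a pseudocount of 1, -0.34 in the first table and -0.26 with array weights, Chac1 had 0.049 and Psph 0.031 in the first table, Sesn2 had -0.17 and Asns -0.13 in the second, and Atf4 had -0.029 as the mean of its probe sets. As single arrays were left out, Ddit3 ran from -0.34 to 0.28, Chac1 from -0.16 to 0.049, Psph from -0.17 to 0.031, Atf4 from 0.14 to 0.25, Atf5 from 0.10 to 0.37, Trib3 from 0.66 to 1.09, Sesn2 from 0.17 to 0.50, Asns from 0.057 to 0.31, Psat1 from 0.18 to 0.46 and Phgdh from 0.19 to 0.41. Without either replicate 3 the values are those of the first table alone, so these are not separate checks. In the second table alone, 1 array against 1, the median was 0.35 for regulators and -0.053 for enzymes, a difference of 0.41. The same ranges over left-out arrays were 0.13 to 0.24 for regulators, 0.14 to 0.28 for enzymes and -0.15 to 0.055 for the difference. With the replicate number as a replicate block the difference of medians was -0.021, the regulators had 0.20 and the enzymes 0.22, 627 genes had an unadjusted p under 0.05, and Trib3 had a limma adjusted p of 0.515, its range over the alternatives being 0.272 to 0.99975. Same-numbered arrays share a table and their deviations from the group means correlated at 0.43 to 0.74, but within the first table at -0.0091, so the numbers showed no pairing beyond the table. The causes were not tested.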
